A study of Mus musculus with 5 samples.

Results

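Genes of the ciliated airway cell were followed through 5 pools of whole mouse lung RNA. The members were 9 genes known from motile cilia, namely Foxj1, Tekt1, Tekt2, Tekt4, Rsph1, Dynlrb2, Tppp3, Dnali1 and Hydin, and each was read through probe sets that the platform annotation maps to that gene alone. Such a probe set was found for 5 of the 9 members, 1 each, among the 12393 genes with a single-gene probe set. These were Foxj1, Tekt1, Tekt2, Rsph1 and Tppp3. Tekt4, Dynlrb2, Dnali1 and Hydin had no such probe set in the annotation used and their levels were not analysed here.

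The study asked how lungs with raised right ventricular pressure differ when the cause is a mutant BMPR2 receptor or hypoxia. The induced pool came from SM22-tet-BMPR2delx4+ mice on doxycycline, whose mutant bone morphogenetic protein receptor is switched on by doxycycline and driven in smooth muscle by the SM22 promoter; the pressure was 50 ± 8 mmHg. Hypoxic lungs were taken from FVB/N animals aged 8 weeks that had spent 4 weeks in hypoxia, with a pressure of 50 ± 8 mmHg as well. The other 3 pools had a normal pressure of 30 ± 3 mmHg. They were wild-type FVB/N mice aged 8 weeks, SM22-rtTA mice on doxycycline, which have the activator and no mutant receptor, and SM22-tet-BMPR2delx4+ mice without doxycycline, called uninduced below. For the 3 transgenic pools the titles state no strain, and what their 8 weeks refers to is not explained. The kind of error after each pressure and the number of animals per pool are not stated. Each condition was 1 array of pooled RNA, so all differences below are values without a test, and the number of arrays limits the precision.

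Multiciliated cells line the conducting airways between the secretory club cells and move mucus by the beat of their cilia. Each cilium is built on an axoneme of microtubule doublets around a central pair, with dynein arms as motors, radial spokes that reach the central pair, and nexin links between doublets. The forkhead factor Foxj1 and the RFX factors drive the program that makes these parts, and RFX factors bind a promoter element known as the X-box. In bulk lung RNA, fewer ciliated cells and less RNA per ciliated cell cannot be told apart.

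Promoter sequence was available from RefSeq (GRCm38.p6) for 6 of the 9 members, which do not include the measured Foxj1, Rsph1 and Tppp3, as 300-base windows that run from 250 bases before to 50 bases after each transcript start. The letters GTTGCC, the core of the X-box, were searched on both strands, where GGCAAC is the other strand's reading. They stood in at least 1 window of 5 of these 6 members (Tekt1, Tekt2, Tekt4, Dynlrb2 and Hydin) and in none of Dnali1. Of 27025 genes with a window, 14.1% held them, and of 149 other motile cilia genes 69 did (46.3%). The 120 bases before the start are shown for 4 of the members that hold the core and for Lrrc23, a radial spoke gene whose intensity differed between pools; capitals mark the core on either strand.
Tekt1, chr11:72361883-72362002, minus strand: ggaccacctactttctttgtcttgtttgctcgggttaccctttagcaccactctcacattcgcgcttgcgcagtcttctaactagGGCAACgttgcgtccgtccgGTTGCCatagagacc
Tekt2, chr4:126325689-126325808, minus strand: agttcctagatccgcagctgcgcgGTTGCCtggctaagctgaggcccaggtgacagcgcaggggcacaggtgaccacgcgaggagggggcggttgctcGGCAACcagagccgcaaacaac
Dynlrb2, chr8:116504895-116505014, plus strand: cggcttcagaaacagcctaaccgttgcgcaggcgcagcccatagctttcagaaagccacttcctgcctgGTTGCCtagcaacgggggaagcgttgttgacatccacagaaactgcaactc
Hydin, chr8:110266857-110266976, plus strand: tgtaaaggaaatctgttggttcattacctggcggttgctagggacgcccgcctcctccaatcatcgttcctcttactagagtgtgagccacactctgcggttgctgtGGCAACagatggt
Lrrc23, chr6:124779728-124779847, minus strand: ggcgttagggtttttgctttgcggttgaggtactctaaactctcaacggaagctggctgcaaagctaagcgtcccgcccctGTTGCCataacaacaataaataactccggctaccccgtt
Tekt1 and Tekt2 each held the core once on each strand within this stretch. The core lay 15 and 35 bases before the start in Tekt1, 22 and 96 in Tekt2, 51 in Dynlrb2 and 13 in Hydin, counted to its first base. Tekt2 has a second window with another start, and relative to that start its cores lay at -138 and -64. In Tekt4 it lay after the start. A fixed paired X-box form, GTTNCC, any 2 bases and GGNAAC, can overlap the core on both strands. This form was in 5 of the 149 other motile cilia genes, in 0.529% of all genes and in none of the 6 members. Pairs with other spacing or other letters were not searched, so none is said to be absent. The forkhead letters TGTTTAC, also searched on both strands, were in 8 of the 149 (5.37%) and in 4.05% of all genes, again in none of the 6 members. By role the share of genes with the core GTTGCC was lowest at 14.3% (2 of 14 outer arm dynein genes, near that of all genes). It was highest at 61.5% (8 of 13 dynein assembly genes). Among the other lists the core was in 0 of 9 club and airway secretory, 0 of 7 general epithelial and 0 of 6 squamous genes. It was also in 0 of 6 proliferation and 0 of 10 testis genes. Alveolar type 2 genes held it in 1 of 6, alveolar type 1 in 1 of 7, skeletal muscle in 1 of 8 and kidney tubule in 2 of 10 (20%). These matches describe letters in a window and do not show binding.

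The deposited intensities were shifted to a common median and read against a noise floor at a scaled intensity of 276, the 50th percentile of all values. A gene is called measured where at least 1 pool lay above the floor, which held for 8597 genes, with 6813 to 7433 above it per pool. The spread of the log2 ratio between the SM22-rtTA and uninduced pools, both at normal pressure, had an SD of 0.34 over the 5894 genes above the floor in all pools. It is used below as the yardstick for steps between pools; genotype and doxycycline differ between those pools and are part of it. The wild-type pool stood apart, since all 10 kidney tubule markers were above the floor there and 1 of 10 in every other pool. Their summed scaled intensity was 2552 in hypoxia, 53733 in wild type and 1194 to 1375 in the 3 transgenic pools, so the hypoxic pool is set against the transgenic pools as well as against wild type. Skeletal muscle markers summed to 63742 in the induced pool, 16229 in hypoxia and 1701 to 3743 in the pools at normal pressure.

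Of the 5 members with a probe set, 3 were measured (Foxj1, Rsph1 and Tppp3). Foxj1, the transcription factor that commands motile ciliogenesis, had a scaled intensity of 947 in the induced pool, 1498 in hypoxia, 1149 in wild type, 588 in SM22-rtTA and 888 in the uninduced pool. The hypoxic pool was thus highest and SM22-rtTA lowest, 2.55-fold apart. Of all measured genes 23.5% were highest in hypoxia and 24.3% lowest in SM22-rtTA. The steps down the order were 0.38 on the log2 scale between hypoxia and wild type, 0.28 between wild type and the induced pool, 0.09 between the induced and uninduced pools and 0.59 between the uninduced pool and SM22-rtTA. Wild type, the induced pool and the uninduced pool therefore followed each other in steps under the 0.34 yardstick. From end to end of these pools, wild type over uninduced was 0.37, just past it. The steps at both ends of the order were larger, and the last is a ratio of the pools that set the yardstick.

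Rsph1, a protein of the radial spoke head whose loss causes primary ciliary dyskinesia, was at 638 in the induced pool, 785 in hypoxia, 599 in wild type, 250 in SM22-rtTA and 520 in the uninduced pool. As for Foxj1, hypoxia was highest and SM22-rtTA lowest, here under the floor. The hypoxic pool was at least 2.84-fold above SM22-rtTA, while the 4 pools other than SM22-rtTA lay within 0.30 of their neighbours in the order. From end to end of these 4, hypoxia over uninduced was 0.60 on the log2 scale.

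Tppp3, a tubulin-binding protein of ciliated cells that bundles microtubules and is also made outside the airway epithelium, had another order. It was at 3020 in the induced pool, 3196 in hypoxia, 1908 in wild type, 2507 in SM22-rtTA and 2907 in the uninduced pool. The lowest pool was wild type, as for 28% of measured genes, 0.39 under SM22-rtTA on the log2 scale. The other 4 pools lay within 0.21 of their neighbours, and hypoxia over SM22-rtTA, their ends, was 0.35.

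Tekt1 and Tekt2, tektins that form filaments along the doublet wall, were under the floor in all 5 pools. Tekt1 read 198 in the induced pool, 164 in hypoxia, 130 in wild type, 118 in SM22-rtTA and 194 in the uninduced pool. Tekt2 read 182 in the induced pool, 140 in hypoxia, 95 in wild type, 176 in SM22-rtTA and 205 in the uninduced pool. At these intensities no order is read and no fold is given, so the ciliated cell label rests on 3 of the 5 readable members.

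**Figure D1:**
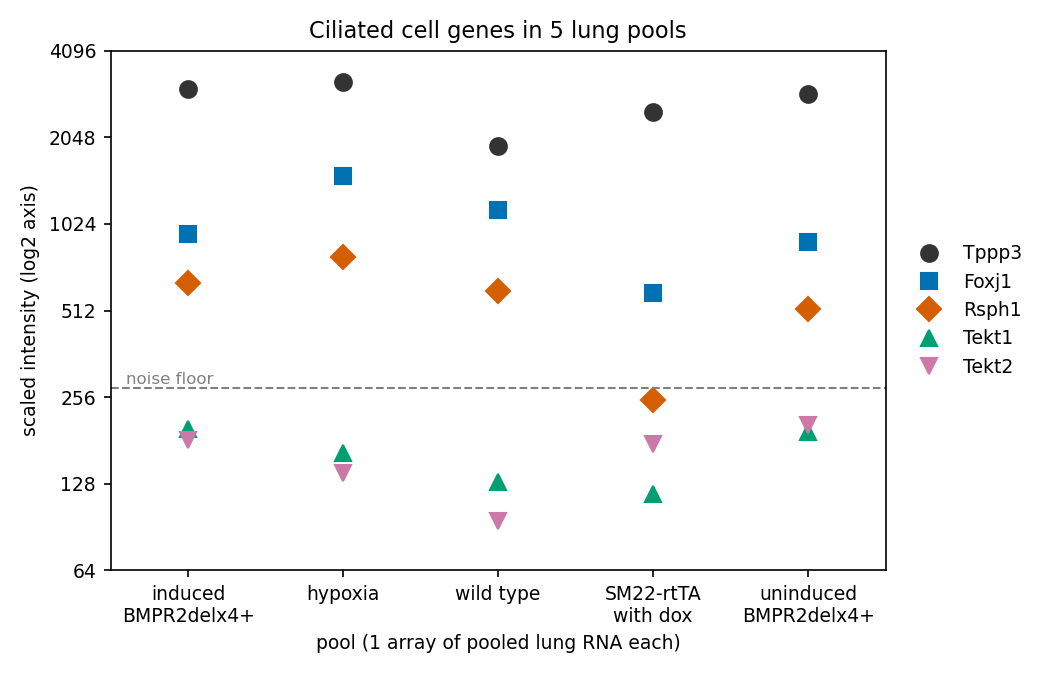
Scaled intensity of the 5 readable ciliated cell genes (log2 axis) in each of the 5 lung pools, 1 marker per array and the dashed line at the noise floor of 276. Foxj1 and Rsph1 are highest in hypoxia and lowest in SM22-rtTA, Tppp3 is lowest in wild type, and both tektins lie under the floor everywhere.

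The induced and uninduced pools, which differ in doxycycline as well as in the mutant receptor, differed little in these genes. Foxj1 was 1.07-fold, Rsph1 1.23-fold and Tppp3 1.04-fold higher in the induced than in the uninduced pool. None of the 3 was 1.5-fold apart, against 7.68% of all measured genes (5.09% higher and 2.58% lower). With so few members this count is near that share and is not read as particular to them. The median log2 ratio of the 3 members was 0.09 against 0.00 over all. All 3 ratios were inside the 0.34 yardstick. Beside them, the 8 alveolar type 2 markers were all lower in the induced pool, with a median of -0.41, and the 11 club and airway secretory markers had a median of 0.03.

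The same induced pool stood further above SM22-rtTA, the other doxycycline-treated pool. Foxj1 was 1.61-fold and Rsph1 at least 2.31-fold higher in the induced pool, while Tppp3 was 1.20-fold higher. That is 2 of 3 members at least 1.5-fold higher, against 9.79% of all measured genes in that direction (6.16% lower, 16% either way). The median was 0.69 on the log2 scale, and 0.01 over all genes.

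Between the transgenic pools at normal pressure, Foxj1 was 1.51-fold and Rsph1 at least 1.88-fold lower in SM22-rtTA than in the uninduced pool, and Tppp3 was 1.16-fold lower. This made 2 of 3 members past 1.5-fold, against 4.57% of measured genes lower, 3.05% higher and 7.62% either way. The Foxj1 value sits at the threshold: its log2 ratio of -0.59 was -0.55 with intensities as deposited and -0.56 with a pseudocount of 50, both short of 1.5-fold. The SM22-rtTA pool enters this contrast and the one before it, so the values are not independent of each other.

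In hypoxia all 3 measured members were above wild type. Foxj1 was at 1498 in hypoxia against 1149 in wild type (1.30-fold), Rsph1 at 785 against 599 (1.31-fold) and Tppp3 at 3196 against 1908 (1.67-fold). Tppp3 alone was past 1.5-fold, where 7.64% of measured genes were so higher, 12% lower and 19.6% apart either way. The median log2 ratio was 0.39, and 0.03 over all genes.

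Set against the transgenic normal-pressure pools, Foxj1 and Rsph1 had the larger ratios and Tppp3 the smallest. Foxj1 had a log2 ratio of 1.05 in hypoxia over the mean of SM22-rtTA and the uninduced pool, and Rsph1 one of at least 1.05. Tppp3 had 0.24. Here 2 of 3 were at least 1.5-fold higher, with 12.2% of all measured genes so higher, 4.3% lower and 16.5% apart either way. Against the uninduced pool by itself, Foxj1 was 1.69-fold, Rsph1 1.51-fold and Tppp3 1.10-fold higher in hypoxia. Part of the mean ratio for Foxj1 and Rsph1 is thus the low SM22-rtTA pool, and part is not.

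Wild type against the mean of the transgenic normal-pressure pools gave log2 ratios of 0.67 for Foxj1, at least 0.66 for Rsph1 and -0.50 for Tppp3. Past 1.5-fold were 17% of measured genes in the upward direction, 10.2% in the downward and 27.2% in all, so 2 of 3 members past that fold is read against a wide background. With intensities as deposited these ratios were 0.45, 0.50 and -0.72, and then Tppp3 alone was past 1.5-fold. The members' median of 0.66 has no stable direction: it was 0.11 with the floor at the 70th percentile and -0.28 with the floor at the 30th, where Tekt1 and Tekt2 enter. Against the uninduced pool by itself, wild type was 1.29-fold higher in Foxj1, 1.15-fold higher in Rsph1 and 1.52-fold lower in Tppp3.

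Between the raised-pressure pools, Foxj1 was 1.58-fold, Rsph1 1.23-fold and Tppp3 1.06-fold lower in the induced than in the hypoxic pool. Foxj1 was the 1 member past 1.5-fold, where 11.4% of measured genes were lower in the induced pool, 10.8% higher and 22.2% apart either way. With intensities as deposited its log2 ratio of -0.66 became -0.54, short of that fold.

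**Figure D2:**
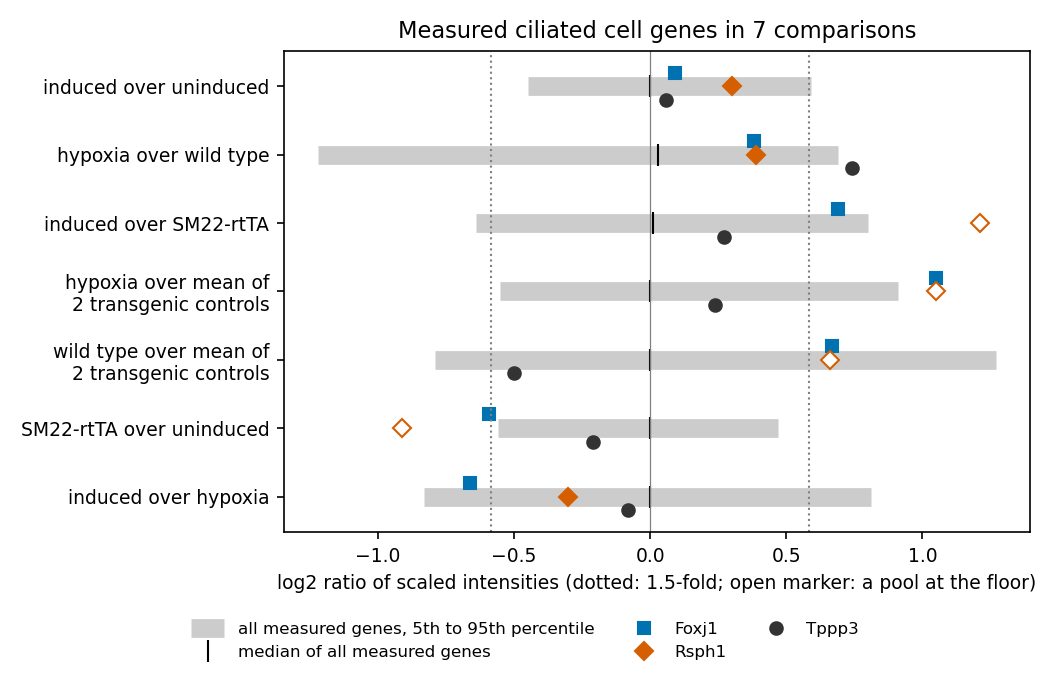
Log2 ratios of Foxj1, Rsph1 and Tppp3 in 7 comparisons, with grey bars from the 5th to the 95th percentile of the 8597 measured genes, a tick at their median and dotted lines at 1.5-fold; open markers are ratios with a pool at the floor. In induced over uninduced all 3 genes lie inside the grey bar, while Rsph1 lies outside it in induced over SM22-rtTA, in hypoxia over the transgenic mean and in SM22-rtTA over uninduced, Foxj1 in the last 2 of these and Tppp3 in hypoxia over wild type.

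Other genes of the motile cilium were taken from a list of 182 genes by role, of which 82 had a single-gene probe set and 54 were measured. Their median log2 ratio lay between -0.05 and 0.11 in the 7 comparisons. At least 1.5-fold apart were 2 higher and none lower in induced over uninduced, which is 3.7% of the list against 7.68% of all measured genes. In induced over SM22-rtTA 6 were higher and 1 lower (13% against 16%), and in SM22-rtTA over uninduced 2 were higher and 3 lower (9.26% against 7.62%). Hypoxia over wild type had 4 higher and 1 lower (9.26% against 19.6%), and hypoxia over the transgenic mean 7 higher and 1 lower (14.8% against 16.5%). Wild type over the transgenic mean had 6 higher and 4 lower (18.5% against 27.2%), and induced over hypoxia 8 higher and 7 lower (27.8% against 22.2%). The medians of the wider list were thus near those of all measured genes, which lay between 0.00 and 0.03, and values differed by role. Of the 54 genes, 14 were at the floor in hypoxia, 20 in wild type and 19 in SM22-rtTA, and ratios between floored values are 0. In induced over SM22-rtTA 37 lay above 0 and 13 below, in induced over uninduced 33 and 16, and in hypoxia over the transgenic mean 25 and 25. Genes above the floor in the induced pool alone had to be above 0 in the first 2.

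The radial spoke and nexin link genes lay above the floor in the BMPR2delx4+ pools and mostly under it elsewhere. Besides Rsph1, 7 of 22 listed genes were measured. All 7 were above the floor in the induced and uninduced pools, 3 in hypoxia, 1 in wild type and 1 in SM22-rtTA. Genes that passed the floor only through the BMPR2delx4+ pools had to be lower elsewhere, so these counts describe the arrays and support nothing further.

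Lrrc23, a component of the spoke head, was at 641 in the induced pool, 358 in hypoxia, 261 in wild type, 375 in SM22-rtTA and 588 in the uninduced pool. It was 1.57-fold lower in SM22-rtTA than in the uninduced pool. Nme5, a spoke protein, was at 453 in the induced pool and 391 in the uninduced pool, and under the floor in hypoxia (252), wild type (261) and SM22-rtTA (244). Rsph9, a partner of Rsph1 in the spoke head, was likewise above the floor in the induced (388) and uninduced (364) pools alone. Dnajb13, a chaperone-like spoke protein, differed from these, with its highest value in hypoxia (418) and 323 in the induced and 344 in the uninduced pool.

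The 1 measured gene of the central pair, Spef1, which bundles its microtubules, was at 888 in the induced pool, 538 in hypoxia, 318 in wild type, 330 in SM22-rtTA and 932 in the uninduced pool. It was 2.83-fold lower in SM22-rtTA than in the uninduced pool and 2.69-fold higher in induced than in SM22-rtTA lungs. In hypoxia it was 1.69-fold above wild type but level with the transgenic mean (log2 ratio -0.04). In SM22-rtTA over the uninduced pool Spef1 was lower, as were Foxj1 and Rsph1, while in wild type it was 1.74-fold below the transgenic mean.

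Among regulators, E2f4, a factor of the multiciliation complex, was at 657 in the induced pool, 991 in hypoxia, 757 in wild type, 666 in SM22-rtTA and 552 in the uninduced pool. E2f5 was highest in wild type (596, and 308 to 374 elsewhere). Foxn4, known from multiciliated cells of the frog Xenopus, was at 609 in hypoxia and 308 to 493 elsewhere. Myb, which acts early in multiciliation and also marks blood cell progenitors, was at 785 in the induced and 481 in the uninduced pool and under the floor in the other 3.

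Of outer arm dynein genes, Dynll1 and Dynll2, light chains shared with cytoplasmic motors, ranged from 3773 to 5362 and from 1816 to 2603, with none of the 7 comparisons past 1.5-fold on the probe set that stands for each gene. The second Dynll2 probe set differed, at 533 in the induced pool, 534 in hypoxia, 1075 in wild type, 507 in SM22-rtTA and 372 in the uninduced pool, so the probe sets of Dynll2 disagree on wild type. The calcium-binding centrin Cetn2, listed with the inner arms, lay between 784 and 997, and its second probe set between 333 in hypoxia and 570 in the induced pool. Wdr78, an inner arm dynein chain, was above the floor in the induced pool alone (287). The dynein assembly factor Cfap298 was at 426 in the induced pool, 738 in hypoxia, 594 in wild type, 348 in SM22-rtTA and 368 in the uninduced pool. In 2 of its 3 other probe sets hypoxia was not above the uninduced pool, so its pattern is not settled. The assembly chaperone Ruvbl2, which has many other roles, was lowest in wild type (449, and 621 to 781 elsewhere).

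Intraflagellar transport genes, which primary cilia need too, had medians between -0.10 and 0.07. The kinesin subunit Kif3b was at 776 in hypoxia, against 546 in wild type, 451 in SM22-rtTA and 335 in the uninduced pool, with 397 in the induced pool, and its other 3 probe sets stayed between 180 and 401 without that order. The kinesin Kif17 was higher in hypoxia (590) and wild type (567) than in the transgenic pools (305 to 349). Ift172 was at 578 in the induced pool, 474 in the uninduced pool and 319 to 339 elsewhere, while Ift20 was highest in SM22-rtTA (828).

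The brain-rich tubulin Tubb4a, listed with the doublet genes, was at 985 in hypoxia and 963 in wild type and at 538 to 640 in the transgenic pools. Mlf1, which ciliated cells and skeletal muscle both make, was at 1675 in the induced pool against 370 in the uninduced pool, 4.53-fold. All 10 skeletal muscle markers were higher in the same comparison, with a median log2 ratio of 3.94 and sums of 63742 in the induced and 3743 in the uninduced pool, and their part in the Mlf1 value was not tested.

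**Figure D3:**
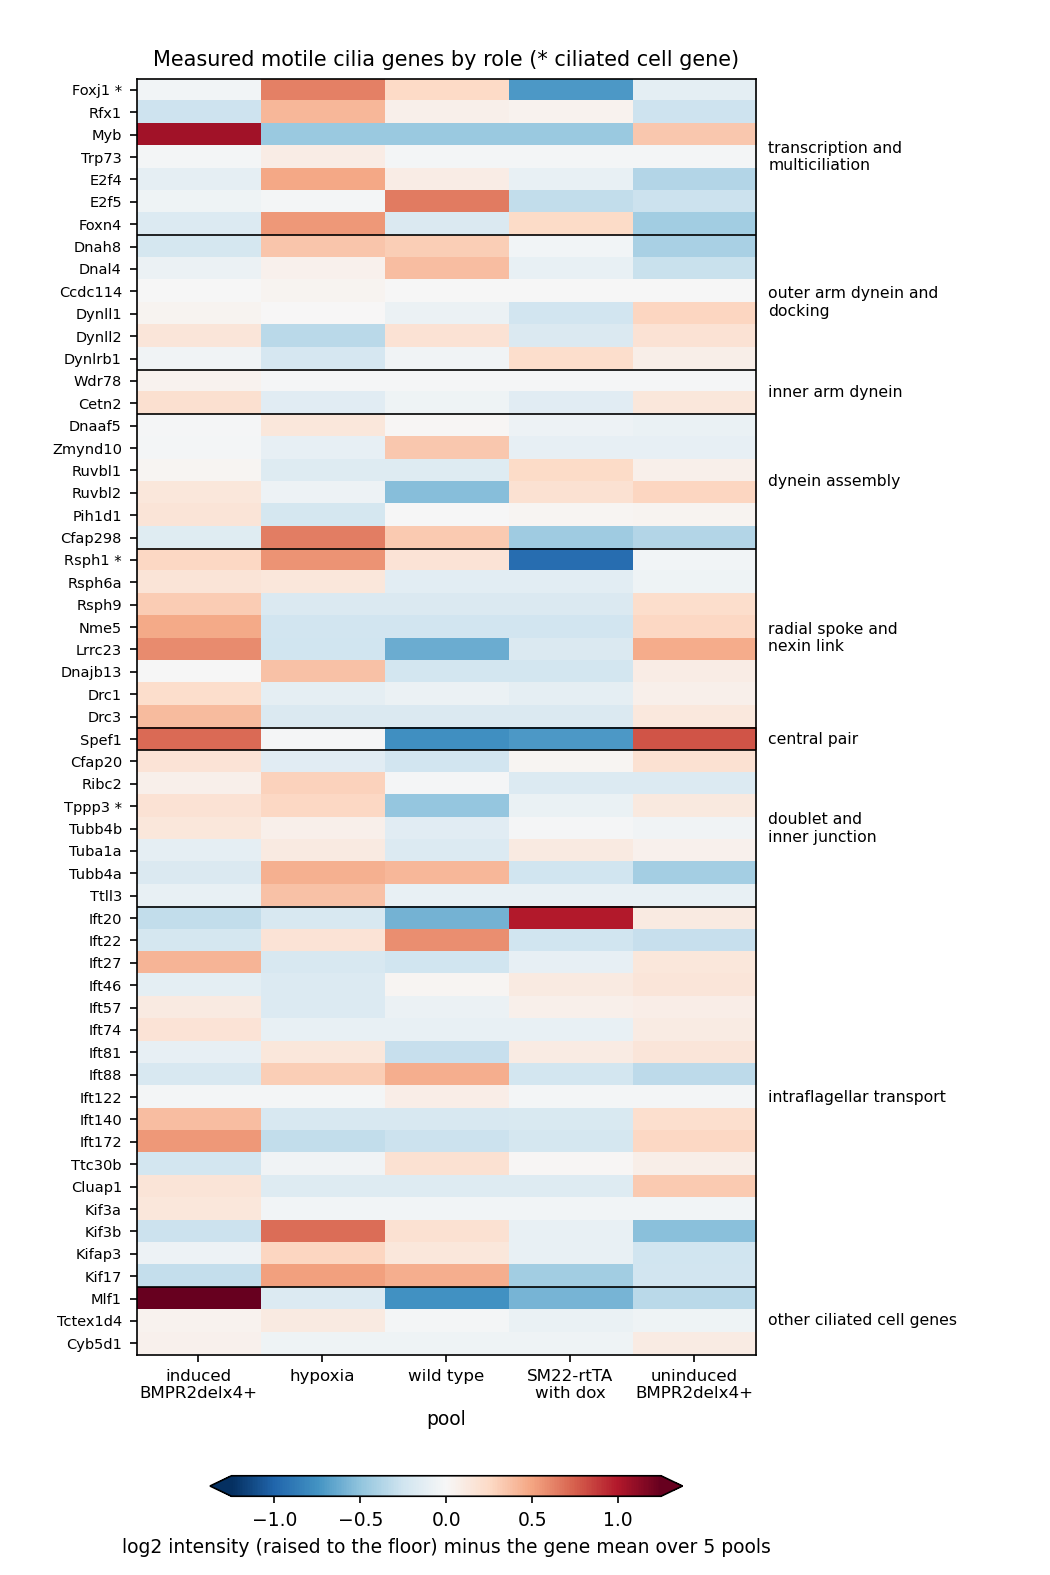
Measured motile cilia genes by role, each as log2 scaled intensity raised to the floor minus its own mean over the 5 pools, with ciliated cell members starred; columns are pools, and the arrowed ends of the colour bar mark values beyond its range. Foxj1 and Rsph1 are red in hypoxia and blue in SM22-rtTA, while Lrrc23, Nme5 and Spef1 are red in both BMPR2delx4+ pools. Nme5 passed the floor in those pools alone, so its colours could not fall otherwise.

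Markers of other airway cells were also lower in SM22-rtTA. Of 11 measured club and airway secretory markers 3 were at least 1.5-fold lower in SM22-rtTA than in the uninduced pool (27.3%, against 4.57% of all measured genes), with a median log2 ratio of -0.37. The sum of the list was 56795 in SM22-rtTA and 65981 in the uninduced pool. Club cell Scgb1a1 was level, at 11188 in SM22-rtTA and 11202 in the uninduced pool. Cyp2f2 was at 9625 against 10533 (log2 ratio -0.13) and Cbr2 at 9288 against 10802 (-0.22). The secretoglobin Scgb3a1, made in larger airways, was at 3573 in SM22-rtTA against 5452 in the uninduced pool, and the mucin Muc5b at 116, under the floor, against 587. Both are among the 3 past 1.5-fold. Muc5b passed the floor in the BMPR2delx4+ pools alone, so it had to be lower in SM22-rtTA and adds nothing to that count. General epithelial and alveolar lists had medians of -0.16 (general), -0.01 (type 1) and -0.01 (type 2) in the same comparison. The part of the airway list in the Foxj1 and Rsph1 values was not tested.

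In wild type over the transgenic mean the lists went another way. All 9 general epithelial markers were lower in wild type, 5 of them at least 1.5-fold (55.6%, against 10.2% of all measured genes lower and 27.2% either way), with a median of -0.75 and sums of 8105 in wild type, 12945 in SM22-rtTA and 13899 in the uninduced pool. Keratin Krt19 was at 1102 in wild type and 2405 and 2356 in those pools, and Krt8 at 1944 against 3081 and 3470. Cdh1 differed less, at 1769 in wild type against 1771 in SM22-rtTA and 2211 in the uninduced pool. Alveolar type 1 markers had a median of -0.55 and type 2 markers -0.24. Tppp3, at -0.50, was on the side of these lists, and Foxj1 and Rsph1, at 0.67 and at least 0.66, were not. The kidney transcripts of the wild-type pool move with this comparison, and their part in it was not tested.

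Hypoxia over wild type mirrored that contrast, with which it shares the wild-type array: medians were 0.47 for general epithelium, 0.50 for alveolar type 1, 0.28 for alveolar type 2 and -0.01 for club and airway secretory markers. Over the transgenic mean these were -0.17, 0.01, 0.03 and -0.11, beside 1.05 for Foxj1 and at least 1.05 for Rsph1. Squamous and basal markers differed from these lists, with sums of 24785 in hypoxia, 1785 in wild type, 1474 in SM22-rtTA and 1582 in the uninduced pool. Of 9 with a probe set 8 were measured, all of them above the floor in hypoxia. Most of these passed the floor only through the raised-pressure pools and had to be lower elsewhere, so that count describes the arrays. In the induced pool the squamous sum was 15853, and Foxj1 there was 1.07-fold above the uninduced pool. The part of the squamous markers in the hypoxic values was not tested.

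Testis also makes tektins and many axonemal proteins. Of 11 testis markers 3 were above the floor in any pool, the highest at 317 (Ldhc in the induced pool), and protamine Prm1 peaked at 289. Of 5 proliferation markers 3 were measured, each above the floor in the induced pool alone, with Mki67 at 313. They count as measured only through that pool, so they had to be highest there, and the others were under the floor in every pool.

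**Figure D4:**
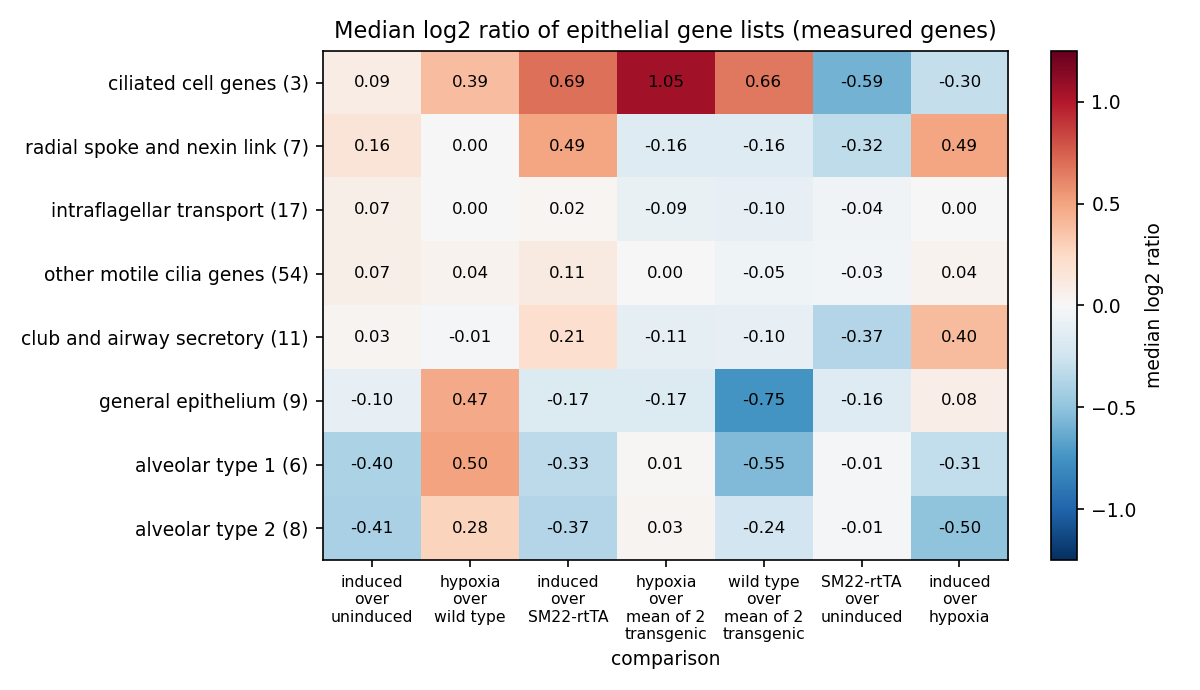
Median log2 ratio of measured genes (number in brackets) for the ciliated cell members and 7 other gene lists, with comparisons in columns. The ciliated cell row, a median of 3 genes, is at 0.66 in wild type over the transgenic mean (-0.28 with the floor at the 30th percentile), where general epithelium is at -0.75, and at -0.59 in SM22-rtTA over uninduced, where the club and airway secretory row is at -0.37.

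Genes outside the list were ranked by how closely their profile over the 5 pools followed the mean of Foxj1, Rsph1 and Tppp3, as the root mean square difference of log2 intensities centred on each gene's mean. The mean profile was 0.14 in the induced pool, 0.48 in hypoxia, -0.02 in wild type, -0.59 in SM22-rtTA and -0.01 in the uninduced pool. The metal transporter Slc11a2 was nearest, at a difference of 0.057, followed by the replication factor Gins4 (0.062), Hivep2 (0.072), Pde6h (0.080) and the transcription factor Sp3 (0.087). Slc11a2 was at 986 in the induced pool, 1228 in hypoxia, 788 in wild type, 573 in SM22-rtTA and 864 in the uninduced pool. Next came Eps8l1, Cars, Slc25a29, Sowahc and Sike1, at 0.092 to 0.105. These are the 10 nearest of the genes above the floor in all pools, chosen for that nearness. The members' own differences from their mean were 0.17 for Foxj1, 0.19 for Rsph1 and 0.33 for Tppp3.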

How the data were processed

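Whole-lung RNA pools were read on 5 arrays, 1 per group; groups, pressures and weeks come from the sample titles and descriptions. The deposited table holds linear intensity values, 1 per probe set (22626), with a lower limit of 50; how the authors summarised, background-corrected and scaled them is not given in the sources used here. Here log2 intensities were shifted per array until the medians of 9046 bright probe sets, those in the upper part (over the 50th percentile) of every array, were equal (shifts of -0.11 to 0.13), and values under the 50th percentile of the shifted data were raised to that floor. Gene names are those of the platform annotation, brought up to date with a RefSeq table (GRCm38.p6, names only): 20380 had 1 gene, 691 several and 1555 none. The probe set with the highest mean stood for its gene, and every readable member had 1 probe set. Ratios against a floored value are bounds. A gene at least 1.5-fold apart is past the fold. No test was run, since no group has a second array.

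The members and gene lists were chosen with earlier results of these data known. Named genes were the members, the 10 nearest profiles and up to 4 measured genes per cilia role. Those 4 had the largest ratio past 1.5-fold for the wild-type, induced or hypoxic pool (failing that, the 2 brightest). From each other list the 3 brightest could be named, but only some of them appear in the text. Rsph9, Scgb3a1 and Muc5b were chosen after their values were seen. Ratios and calls were tried on simulated data with large changes planted in bright genes. Calls near 1.5-fold or at the floor are not covered by that trial. Alternatives covered scaling, floor, pseudocount, fold and probe set summary. Python 3.11.15, pandas 2.3.3 and numpy 2.4.6 were used.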

Additional observations from a re-analysis of the deposited data

How the results depend on the processing

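Of 101 alternative values for the counts and medians of the measured members, 82 stayed within the limits used (1.5 times for a count, 0.34 for a log2 value), and of 141 for single members 137 did. With a 2-fold threshold no member was apart in hypoxia over wild type (0, against 1), wild type over the transgenic mean (0, against 2), SM22-rtTA over uninduced (0, against 2) or induced over hypoxia (0, against 1), and 1, against 2, was in induced over SM22-rtTA. With the floor at the 70th percentile, which lies above Rsph1 in SM22-rtTA and in the uninduced pool, 1 member was apart in place of 2 in induced over SM22-rtTA, hypoxia over the transgenic mean, wild type over the transgenic mean and SM22-rtTA over uninduced, and the medians there were 0.27, 0.50, 0.11 and -0.21. With the floor at the 30th percentile Tekt1 and Tekt2 joined the median, which became 0.24 in hypoxia over the transgenic mean and turned to -0.28 in wild type over the transgenic mean. With intensities as deposited 1 member was apart, against 2, in wild type over the transgenic mean and in SM22-rtTA over uninduced, and 0, against 1, in induced over hypoxia. A pseudocount of 50 in place of the floor left 1 in SM22-rtTA over uninduced. Scaling without the wild-type pool, an alternative chosen after seeing the data, moved no count or median of the members past these limits in the 5 comparisons that do not use that pool. No paired analysis was possible because each group has 1 array, and for the same reason no replicate could be left out. Signal over background limits what can be said of Tekt1 and Tekt2.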
